A study of Mus musculus with 6 samples.

Results

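Caveolae are small flask-shaped pits of the plasma membrane, dense in cardiac muscle, endothelium and fat. Caveolins insert into the inner leaflet of the membrane and bind cholesterol, and cavins assemble on them as a coat from the cytosol. EHD2 is an ATPase that sits at the neck of the pit and holds it at the surface, and PACSIN2 (also called syndapin-2) carries an F-BAR domain that bends membrane there. The genes examined here were the caveolins Cav1, Cav2 and Cav3, the cavins Ptrf, Sdpr and Prkcdbp, and the neck and membrane-shaping genes Ehd2 and Pacsin2. They are defined by name as components of this membrane compartment, with no threshold on their expression. These 8 genes were read by 12 of the 55681 probes on the array, which carry 36163 names in all. The array uses older names for the cavins. In the RefSeq gene table all 9 names looked up, the fourth cavin Murc among them, were found, 4 of them under another symbol: Ptrf is Cavin1, Sdpr is Cavin2, Prkcdbp is Cavin3 and Murc is Cavin4.

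The samples were cardiac muscle of male C57BL/6 mice. In tail-suspension the hindlimbs are lifted off the floor by the tail, which unloads them and shifts fluid towards the head, and the procedure is used to simulate microgravity. A group of 3 sham mice was kept in the same space without suspension, and 3 mice were tail-suspended for 28 days from 10 weeks of age, although the labels also give 11 weeks as the age of all 6 animals. The labels name no transgene and no drug for any of the mice. The comparison asks which genes of the heart respond to simulated weightlessness. Each array, a 1-colour Agilent array, took the labelled total RNA of 1 mouse.

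A level below is the log2 of the processed intensity of a probe minus the log2 of the 75th percentile of that array, so that 0 is the brightness of the probe at the 75th percentile. Fold changes are tail-suspension minus sham on this log2 scale. They are given with the standard error (SE) and with an adjusted p from limma after Benjamini-Hochberg adjustment over the 28030 probes tested, with a threshold of 0.05. Each gene is represented by the tested probe with the highest mean level, and its other probes are given beside it. Levels of different probes are not comparable, because each probe binds with its own strength. The 75th percentile of the processed intensity lay between 300.0 and 318.9 on the sham arrays and between 337.7 and 375.0 on the tail-suspension arrays. The share of probes well above background was between 50.9% and 53.4% per array, and no spot was saturated.

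The 12 probes are 60-base oligonucleotides. Those on which the results turn are printed here from the array files in the sense of the transcript, 5′ to 3′, with their place on the mouse build mm9 as the files give it. Whether a probe lies in coding or untranslated sequence is not stated in the files. The first pair are printed whole, and the others by their first 30 of 60 bases. The Ptrf and Ehd2 pairs are shown because the probes of 1 gene gave separate readings of it. In the Cav1 probe the capitals mark a TGA, a stop triplet in 1 of its reading frames, though which frame is read is not stated in the files.
Cav1, chr6:17289414-17289473, plus strand: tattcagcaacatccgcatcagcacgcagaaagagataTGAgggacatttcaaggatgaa
Ptrf, dimmer probe, chr11:100831717-100831776, minus strand: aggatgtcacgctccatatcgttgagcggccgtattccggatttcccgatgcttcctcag
Ptrf, brighter probe, chr11:100818129-100818188, minus strand: tgggtaagtgttggatgaggtcctctgtgc
Sdpr, chr1:51359651-51359710, plus strand: agtgaggtgaataatgggtgttgatggtgt
Ehd2, brighter probe, chr7:16532351-16532410, minus strand: ttatgaggattaatctgaggcttggcagca
Ehd2, dimmer probe, chr7:16535288-16535347, minus strand: cttcacatacacggagcttatcacagaaac
Pacsin2, chr15:83206622-83206681, minus strand: ttgttcctaagctacagaatgaccaaaagc
Cav3, chr6:112422739-112422798, plus strand: aggctttgcgttcacatgtactgtaatagc

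In tail-suspended mouse hearts, 3 of the 8 genes were lower than in sham hearts past the adjusted threshold (limma). They were Sdpr, Ehd2 and Pacsin2, which decreased by 30.2% for Sdpr, decreased by 30.5% for Ehd2 and decreased by 37.2% for Pacsin2. No gene of the 8 was higher. Among all 20672 names tested, 9.82% were lower and 10.3% were higher past the threshold. By role, the caveolins had 0 of 3 genes past the threshold, the cavins 1 of 3 and the neck and membrane-shaping genes 2 of 2. The log2 fold change was below 0 for all 8 genes and for 51.0% of all names tested, with a median of -0.31 against -0.01. This sign turned for Cav1 and Prkcdbp when the arrays were not scaled to each other, and for Prkcdbp also with array weights, with the slide row as a block and without sham replicate 3. The 3 tail-suspension arrays lay below every sham array for 6 of the 8 genes, which was the case for 22.8% of all names tested. The 6 were Cav2, Cav3, Ptrf, Sdpr, Ehd2 and Pacsin2, and the same 6 had an unadjusted limma p under 0.05, as did 37.9% of all names tested in either direction.

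**Figure D1:**
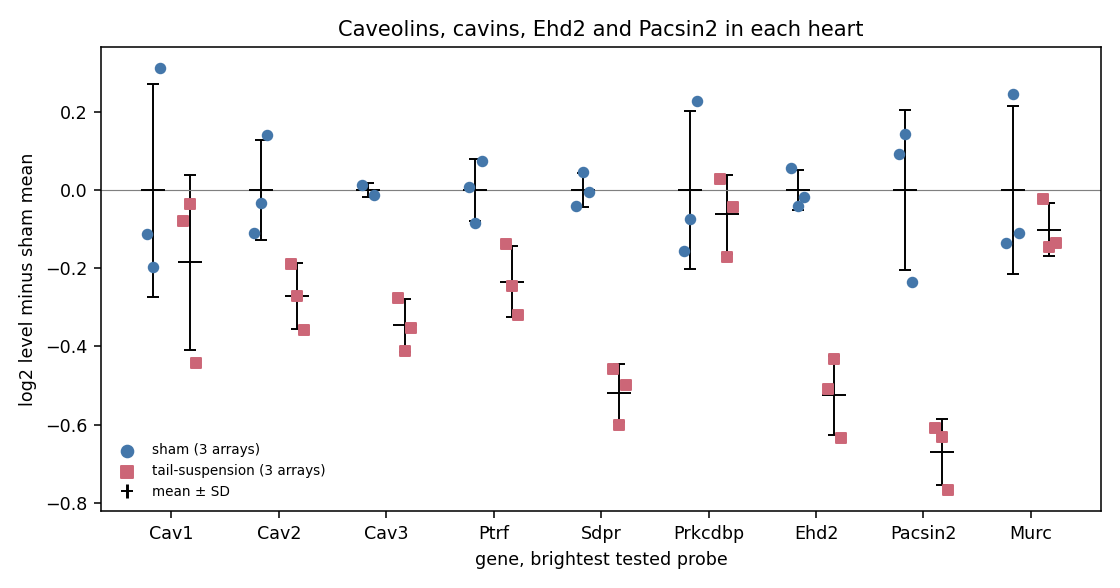
Level of the brightest probe of each gene on every array, as the difference from the sham mean on the log2 scale (vertical axis), for the 8 genes and Murc (horizontal axis). Circles are sham arrays, squares are tail-suspension arrays and black bars are mean ± SD. Cav3 has 2 sham values. The squares lie below all circles for Cav2, Cav3, Ptrf, Sdpr, Ehd2 and Pacsin2 and the groups overlap for Cav1, Prkcdbp and Murc.

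The number of genes called rested on single arrays and on the fit. It was 0 without sham replicate 2, 1 without sham replicate 1, 1 without tail-suspension replicate 3 and 3 in each of the other fits that left out 1 array. All 6 arrays lay on 1 slide in 2 rows, and the first row held the 3 sham arrays and tail-suspension replicate 1, whereas the second held only tail-suspension replicates 2 and 3. With the row as a block, which leaves tail-suspension replicate 1 against the sham arrays, no gene of the 8 passed, with an adjusted p (limma) of 0.137 for Sdpr, 0.137 for Ehd2 and 0.160 for Pacsin2. Within that row, tail-suspension replicate 1 lay below the sham mean by -0.46 for Sdpr, -0.51 for Ehd2 and -0.61 for Pacsin2 on the log2 scale, and below every sham array for each of them. Without scaling between arrays the median change of all probes was 0.21, 6765 probes were higher and 1088 lower in place of 2984 and 2691, and no gene of the 8 passed. Unscaled, the changes were -0.31 for Sdpr, -0.31 for Ehd2 and -0.46 for Pacsin2, and all 3 remained below 0, while Cav2 changed by -0.06, Cav3 by -0.12 and Ptrf by -0.02 at their brightest probes.

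Caveolins give the pit its scaffold. Cav1 is the caveolin of endothelium, fat and smooth muscle, Cav2 forms mixed oligomers with it, and Cav3 is the muscle caveolin. Cav1 had levels of 0.25, 0.17 and 0.68 in sham replicates 1, 2 and 3 and of 0.29, 0.33 and -0.08 in tail-suspension replicates 1, 2 and 3. The groups overlapped, sham replicate 3 was the highest array and tail-suspension replicate 3 the lowest. Cav1 changed by -0.19 (SE 0.17, limma adjusted p = 0.472), with a 95% confidence interval from -0.60 to 0.23. With 1 array left out the change was between -0.28 (without sham replicate 2) and -0.03 (without sham replicate 3), and it was -0.06 without tail-suspension replicate 3.

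Cav2 was read by 3 probes. The brightest is printed 10 times on each array, and the spots of 1 array differed by an SD of between 0.02 and 0.07 on the log2 scale, less than the arrays of 1 group differed from each other. Its levels were 2.25, 2.33 and 2.50 in sham and 2.17, 2.09 and 2.00 in tail-suspension. The groups did not overlap, but the lowest sham and the highest tail-suspension array were 0.08 apart. The deposited intensities did overlap, at 1520, 1595 and 1702 in sham and 1524, 1599 and 1497 in tail-suspension, so this separation came with the scaling. At this probe Cav2 changed by -0.27 (SE 0.10, limma adjusted p = 0.103). The other 2 probes, which lie nearer the start of the gene, changed by -0.29 (SE 0.17) and -0.42 (SE 0.25). They were -0.16 and -0.15 without tail-suspension replicate 3, and the first of them was -0.16 without sham replicate 3. Both had overlapping groups and neither passed (adjusted p = 0.255 and 0.258 by limma). The dimmest of them is dim, with an intensity of 23.2 in tail-suspension replicate 3 and between 32.6 and 43.3 on the other arrays.

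Cav3 had levels of 5.73 and 5.71 in sham replicates 1 and 3 and of 5.44, 5.31 and 5.37 in tail-suspension. The spot of sham replicate 2 carried an outlier flag, so it was left out and the gene was fitted on 2 sham and 3 tail-suspension arrays. Both sham values lay above all tail-suspension values. The change was -0.35 (SE 0.10), so that the signal decreased by 21.3%, which did not pass the threshold (adjusted p = 0.0612 by limma). The flagged spot had a level of 5.52, between the groups, and with it kept the change was -0.28 (limma adjusted p = 0.0787). Before scaling its intensity was 14646, below all 3 tail-suspension arrays at 14709, 14864 and 15408. Sham replicates 1 and 3 had intensities of 16947 and 15681. Within the first row of the slide, tail-suspension replicate 1 lay -0.28 from the mean of the sham arrays with a value. The call depended on the processing: Cav3 was lower past the threshold under quantile normalization (adjusted p = 0.0444), in the authors' log2 table (0.0479) and with an intensity trend and robust estimation (0.0196), and not under the other 17 alternatives.

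Cavins bind to caveolins and to phosphatidylserine and release from the membrane when the pit flattens under stretch. Ptrf, cavin-1, is needed for the coat to form at all. Sdpr, cavin-2, helps to shape the membrane and recruits cavin-1, and Prkcdbp, cavin-3, was first found as a binding protein of protein kinase C delta. Sdpr had levels of 6.37, 6.46 and 6.41 in sham and of 5.95, 5.81 and 5.91 in tail-suspension. The 2 groups were 0.42 apart at their nearest arrays, and the SD within a group was 0.04 in sham and 0.07 in tail-suspension (n = 3 each). The deposited intensities were separate too, at 26387, 27862 and 25439 in sham and 20933, 21038 and 22470 in tail-suspension. On the log2 scale Sdpr fell by 0.52 (SE 0.08, limma adjusted p = 0.0116). Sdpr was below 0 under all 20 alternatives and past the threshold under 17 of them. The exceptions were the fits without scaling (adjusted p = 0.0603), with the row as a block and without sham replicate 2 (0.0539).

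Ptrf was read by 2 probes that gave different results. The brighter had levels of 6.98, 6.88 and 7.04 in sham and of 6.83, 6.72 and 6.65 in tail-suspension. The groups were separate by 0.05, and the intensities before scaling overlapped, at 40185, 37447 and 39550 in sham and 38414, 39622 and 37444 in tail-suspension. Its log2 fold change was -0.23 (SE 0.09, limma adjusted p = 0.117). The dimmer probe, printed whole above, lies nearer the start of the gene, with 13528 bases of genome between the probes. It had levels of -1.75, -2.20 and -2.43 in sham and of -3.20, -3.04 and -3.52 in tail-suspension. All tail-suspension arrays lay below all sham arrays, and the intensities were 94.9, 68.9 and 55.6 in sham against 36.7, 45.6 and 32.4. Its log2 fold change was -1.13 (SE 0.20, limma adjusted p = 0.0157), so that the signal decreased by 54.2%, and it was below 0 under all 19 alternatives that read single probes and past the threshold under 14. Under normexp background correction it passed with a smaller change of -0.68, beside -0.16 for the brighter probe.

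The difference between the changes of the Ptrf probes was -0.89 on the log2 scale. The difference of the probes did not overlap between the groups (two-sided exact permutation p = 0.1, the smallest that 3 against 3 arrays allow). Tail-suspension replicate 1 alone, which shares a slide row with the sham arrays, lay -1.07 from the sham mean at the dimmer probe and -0.14 at the brighter, and with the row as a block neither passed (limma adjusted p = 0.146 and 0.584). With the mean of both probes in place of the brighter, Ptrf changed by -0.68 and passed (adjusted p = 0.0159 by limma). The brighter probe passed in 1 further setting, with an intensity trend and robust estimation (0.0491). Whether Ptrf counts among the lower genes thus depends on the probe read and on the setting. The position of a probe along its gene was also compared over all genes. This took 2353 transcripts with tested probes at least 1000 bases of genome apart. The probe nearer the start changed by a median of 0.02 relative to the probe nearer the end. It was the lower of the pair for 47.2%. The median difference between such probes, relative to its sham mean, lay between -0.02 and 0.01 on the sham arrays. On the tail-suspension arrays it lay between -0.0043 and 0.05. These values cover probes of every brightness, and the part of probe position in the Ptrf difference was not tested.

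Prkcdbp had levels of 2.82, 2.90 and 3.20 in sham and of 3.00, 2.80 and 2.93 in tail-suspension. The tail-suspension arrays lay among the sham arrays or just below them. Prkcdbp changed by -0.06 (SE 0.13, limma adjusted p = 0.747), with a 95% confidence interval from -0.36 to 0.24. Murc, cavin-4, the cavin of striated muscle, was not among the 8 genes. It had levels of 5.13, 5.51 and 5.15 in sham and of 5.24, 5.12 and 5.13 in tail-suspension, which overlapped. Its log2 fold change was -0.10 (SE 0.13, limma adjusted p = 0.587), with a 95% confidence interval from -0.40 to 0.20. The intervals of Prkcdbp and Murc do not reach the change of Sdpr, but both overlap its interval, from -0.72 to -0.32. The difference between genes was not tested.

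Ehd2 was read by 2 probes, and both passed. The brighter had levels of 4.25, 4.15 and 4.18 in sham and of 3.69, 3.76 and 3.56 in tail-suspension, 0.39 apart at the nearest arrays. This probe changed by -0.53 (SE 0.09, limma adjusted p = 0.0138). The dimmer probe had levels of 0.25, 0.11 and -0.10 in sham and of -0.46, -0.61 and -0.99 in tail-suspension, again without overlap. It changed by -0.78 (SE 0.16, limma adjusted p = 0.0235), so that the signal decreased by 41.6%. The probes lie 2877 bases apart, the dimmer nearer the start of the gene, and the difference between their changes was -0.25 with overlapping groups (two-sided exact permutation p = 0.2, where the smallest possible is 0.1). The brighter probe was below 0 under all 20 alternatives and past the threshold under 14. It did not pass without sham replicate 1 (adjusted p = 0.05003), without sham replicate 2 (0.0513), without tail-suspension replicate 3 (0.0506), without the filter on dim probes (0.0536), without scaling (0.0791) or with the row as a block.

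**Figure D2:**
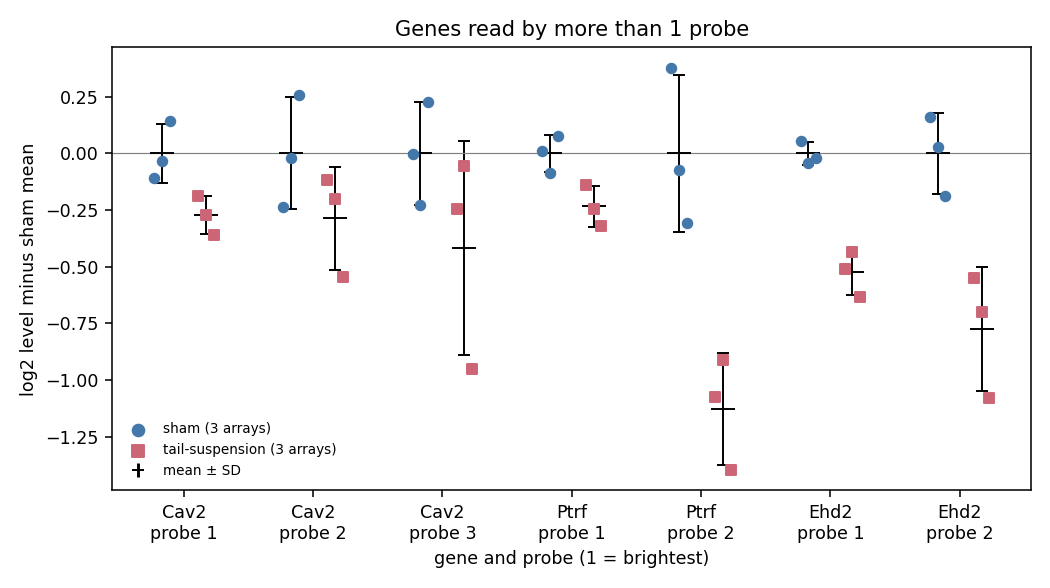
Level of every probe of Cav2, Ptrf and Ehd2 on each array, as the difference from the sham mean of that probe on the log2 scale (vertical axis). Probe 1 is the brightest of its gene, circles are sham arrays, squares are tail-suspension arrays and black bars are mean ± SD (n = 3). Both probes of Ehd2 and of Ptrf have all squares below all circles, with a mean of -0.23 for Ptrf probe 1 and of -1.13 for Ptrf probe 2, while Cav2 probes 2 and 3 overlap.

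Pacsin2 had the largest decrease of the 8 genes by their brightest probes. Its levels were 6.42, 6.47 and 6.09 in sham and 5.71, 5.69 and 5.56 in tail-suspension. The groups did not overlap, and sham replicate 3 lay nearest to the tail-suspension arrays, 0.37 above the highest of them. The intensities were 27244, 28051 and 20426 in sham and 17734, 19377 and 17566 in tail-suspension. On the log2 scale Pacsin2 fell by 0.67 (SE 0.12, limma adjusted p = 0.0166), with a 95% confidence interval from -0.97 to -0.37. It was below 0 under all 20 alternatives and past the threshold under 13, with adjusted p from 0.0045 to 0.160 over them. With each array left out in turn it passed in 3 of 6 fits, and did not without sham replicate 1 (adjusted p = 0.0568), sham replicate 2 (0.0650) or tail-suspension replicate 3 (0.0603).

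An exact permutation test of the arrays gave a two-sided p of 0.1 for Cav2, Cav3, Ptrf, Sdpr, Ehd2 and Pacsin2, which is the smallest that this number of arrays allows, 0.6 for Cav1 and 0.8 for Prkcdbp.

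**Figure D3:**
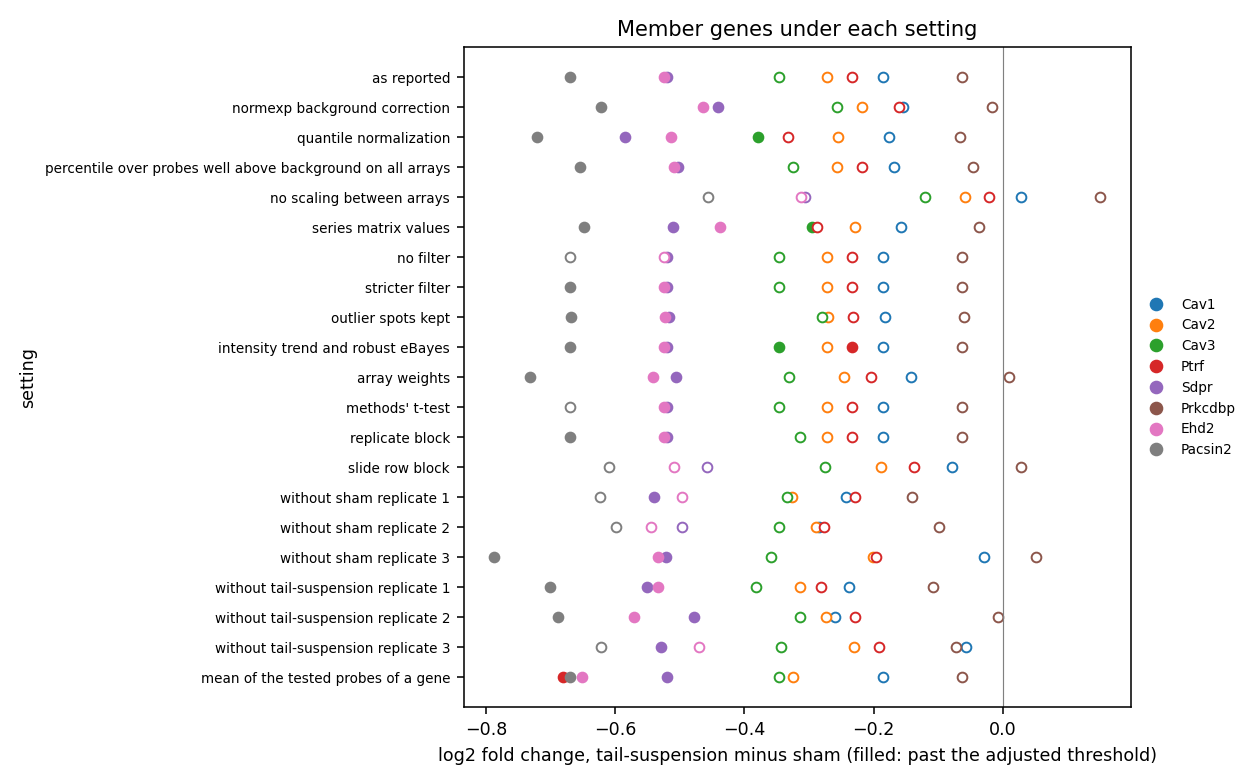
Log2 fold change of each of the 8 genes (horizontal axis, coloured points) under the reported setting and each of the 20 alternatives (vertical axis). Filled points passed the adjusted threshold. Sdpr, Ehd2 and Pacsin2 stay below -0.3 throughout and are all open without scaling, under the row block and without sham replicate 2, Cav3 is filled in 3 settings, and Prkcdbp scatters around 0.

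Other genes of the compartment were taken from a list of 18 with a known tie to caveolae, among them the other EHD and PACSIN genes, dynamins, filamin, flotillins and muscle membrane proteins. Of these, 16 were tested, and 0 were higher and 1 was lower past the threshold, against 10.3% and 9.82% of all names tested. The log2 fold change was below 0 for 7 of 16, with a median of 0.03. By limma's unadjusted p, 4 of 16 passed 0.05 against 37.9% of all names tested, and the number higher was between 1 and 3 under 8 of the 20 alternatives. The lower gene was Dysf, which encodes dysferlin, a muscle membrane repair protein that interacts with Cav3. Its levels were 4.70, 4.79 and 4.61 in sham and 3.89, 3.70 and 3.62 in tail-suspension, without overlap. It decreased by 48.7%, with a log2 fold change of -0.96 (SE 0.11, limma adjusted p = 0.00369), and passed under 19 of 20 alternatives, the exception being the row block (adjusted p = 0.0553). None of the relatives of Ehd2 and Pacsin2 passed the threshold. Ehd1 changed by 0.35 (adjusted p = 0.0594), Ehd3 by 0.12 (0.451), Ehd4 by 0.35 (0.157), Pacsin1 by -0.12 (0.369) and Pacsin3 by 0.03 (0.868), all by limma.

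Many receptors and enzymes have been found in caveolae. Of a list of 21 such genes, 20 were tested, 2 were higher and 1 was lower past the threshold, and the median log2 fold change was 0.10. Of all names tested, 10.3% were higher and 9.82% lower, with a median of -0.01. Adcy6, a major adenylyl cyclase of the heart, had levels of 3.47, 3.58 and 3.54 in sham and of 4.66, 4.52 and 4.78 in tail-suspension. The groups were 0.94 apart, and the gene rose by 1.12 on the log2 scale (SE 0.10, limma adjusted p = 0.00235) and passed under all 20 alternatives. Insr, the insulin receptor, had levels of 1.02, 1.13 and 1.24 in sham and of 1.76, 1.92 and 1.78 in tail-suspension. It rose by 0.69 (SE 0.10, limma adjusted p = 0.00801) at its brightest probe, while its other probes changed by 0.46 (adjusted p = 0.0502) and 0.33 (0.118).

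Kdr, the main VEGF receptor of endothelium, had levels of 4.26, 4.27 and 4.26 in sham and of 3.81, 3.53 and 3.78 in tail-suspension. It fell by 0.55 on the log2 scale (SE 0.10, limma adjusted p = 0.0162), while its second probe changed by -0.25 (adjusted p = 0.0745). The brighter Kdr probe passed under 15 of 20 alternatives, and without scaling it changed by -0.34 (0.0556). Nos3, the endothelial nitric oxide synthase that caveolin-1 holds inactive, had levels of 4.15, 4.19 and 4.36 in sham and of 3.99, 3.99 and 4.02 in tail-suspension. The groups did not overlap, but the change of -0.23 (SE 0.09) did not pass the threshold (adjusted p = 0.113 by limma), nor did that of its second probe at -0.13 (adjusted p = 0.370).

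Caveolae need cholesterol, and 7 genes of cholesterol synthesis, uptake and export were listed for that reason. All 7 were tested, 2 were lower and 1 was higher past the threshold, and the median log2 fold change was -0.43. Of all names tested, 9.82% were lower and 10.3% higher, with a median of -0.01. Hmgcs1, an enzyme of the early mevalonate pathway, changed by -0.51 (SE 0.09, limma adjusted p = 0.0136). Its levels were 3.16, 3.27 and 3.35 in sham and 2.77, 2.72 and 2.76 in tail-suspension. Without scaling Hmgcs1 changed by -0.30 and did not pass (adjusted p = 0.0665). Sqle, which makes squalene epoxide, changed by -1.48 (SE 0.36, limma adjusted p = 0.0336). Its levels of -2.33, -1.78 and -1.76 in sham and of -2.71, -3.46 and -4.13 in tail-suspension did not overlap, but the tail-suspension arrays differed widely. Sqle was well above background on all 6 arrays but dim. At -4.13, tail-suspension replicate 3 lay near the lowest levels well above background on the sham arrays, which averaged -4.37. The change was -0.77 under normexp and -0.76 with the row as a block, and it passed in 1 of the 6 fits that left out an array, the one without tail-suspension replicate 1. Abca1, which exports cholesterol from cells, rose by 0.96 (SE 0.22, limma adjusted p = 0.0296), from 0.52, 0.35 and 0.35 in sham to 1.05, 1.16 and 1.89 in tail-suspension. None of these 3 passed with the row as a block or without the filter on dim probes.

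**Figure D4:**
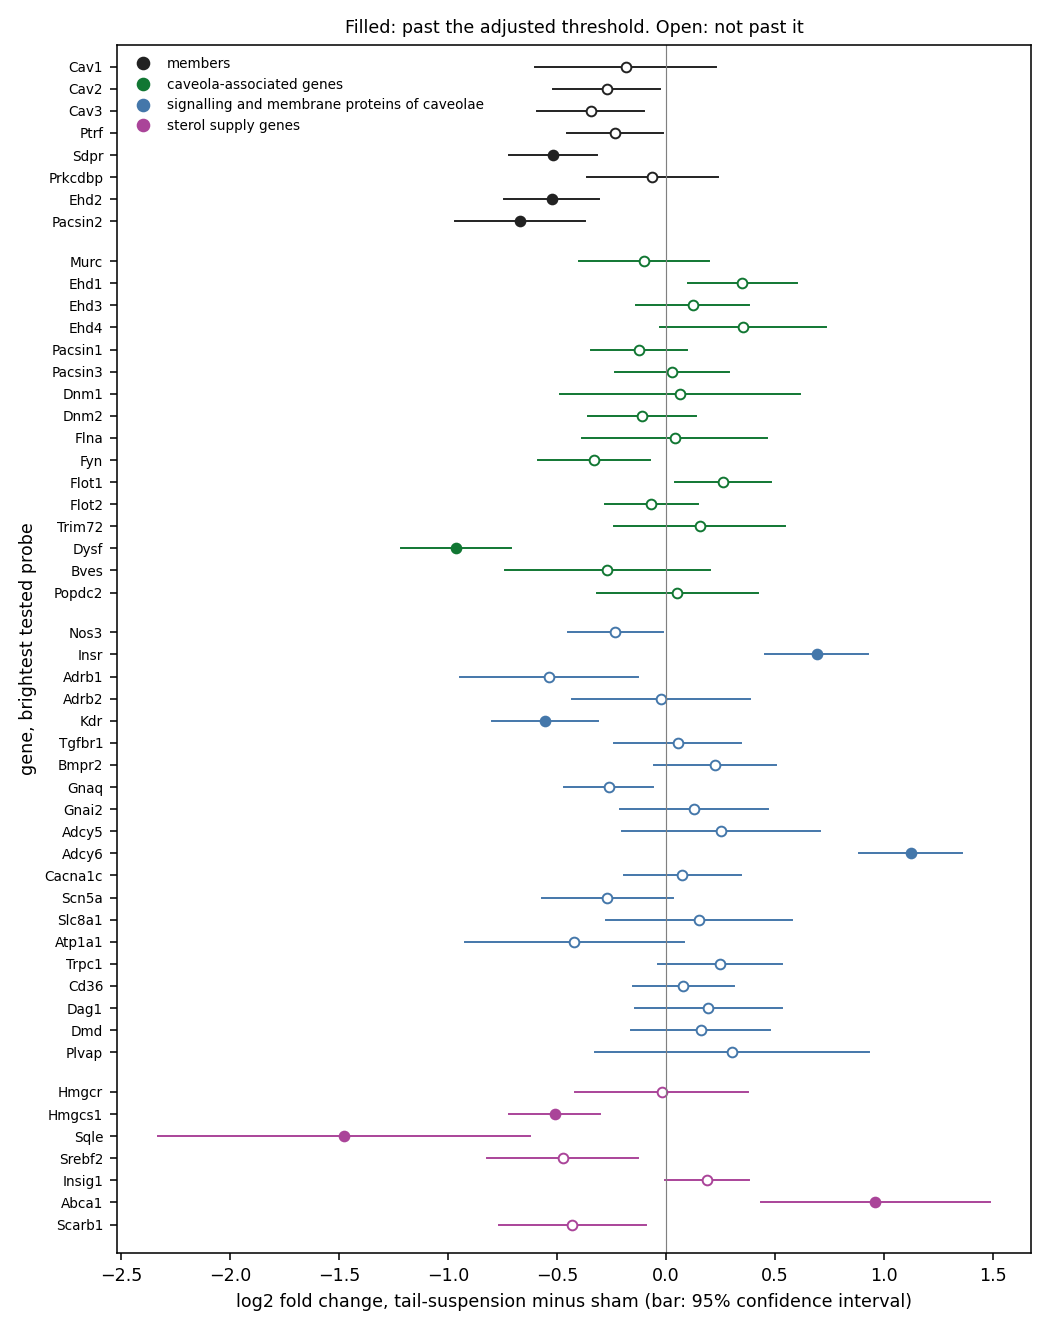
Log2 fold change (horizontal axis) of the brightest probe of each gene (vertical axis), with its 95% confidence interval, for the 8 genes and the 3 lists of related genes. Filled points passed the adjusted threshold. The 8 genes lie left of 0, with Sdpr, Ehd2 and Pacsin2 filled. In the other lists Dysf, Kdr, Hmgcs1 and Sqle are filled to the left and Insr, Adcy6 and Abca1 to the right.

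Heart muscle holds cells that differ in their caveolae, and in RNA of the whole tissue fewer cells of a type and less RNA per cell cannot be told apart. The labelled tissue was borne out by cardiomyocyte markers, of which 9 of 9 were well above background on every array. Their summed level, in multiples of the 75th percentile of the array, was between 3800 and 4210 in sham and between 3620 and 3670 in tail-suspension. The sums did not overlap, but 1 of the 9 markers, Actc1 (-0.33), was lower past the threshold and none was higher. The median log2 fold change of the 9 was -0.09. Actc1 was the brightest of them and weighs most in the sum, with mean levels of 10.03 in sham and 9.705 in tail-suspension. The next brightest, Mb, Myh6 and Tnnt2, overlapped between the groups. Of the 9, 3 were lower without overlap and 1 was higher without overlap. Of 10 endothelial markers, 3 were lower and 1 was higher past the threshold, against 9.82% and 10.3% of all names tested. The 10 markers had a median of -0.26 and sums of 197 to 211 in sham and 177 to 201 in tail-suspension. The lower ones were Egfl7 (-0.31), Emcn (-0.50) and Tie1 (-0.44), the higher one was Vwf (0.99), and Pecam1 changed by 0.19 and Cdh5 by -0.30 without passing. Their part in the lower Sdpr, Ehd2 and Pacsin2 was not tested.

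Fat cells, which are rich in caveolae, left little signal. Of 6 adipocyte markers, 5 were not tested because they were well above background on at most 2 of the 6 arrays, Adipoq and Plin1 among them. The sixth, Cfd, changed by 2.89 on the log2 scale (SE 1.29) and did not pass (limma adjusted p = 0.149). Its levels varied widely and overlapped, at -2.01, -3.53 and -6.36 in sham and 1.03, -2.44 and -1.81 in tail-suspension. Cfd was well above background on 5 of the 6 arrays, with sham replicate 3 the exception. It was therefore tested through the tail-suspension group alone, and its change rests in part on that value below background. The 7 smooth muscle and pericyte markers had 0 higher and 0 lower past the threshold by limma and 2 with an unadjusted p under 0.05, with sums of 60.8 to 82.9 in sham and 73.0 to 102 in tail-suspension. Of 6 fibroblast markers, 1 was lower (Col3a1, by a log2 fold change of -1.88) and none higher, with a median of -0.64. Without passing, Col1a1 changed by -0.95, Col1a2 by -0.63 and Lum by -0.64, and Dcn by 0.34 and Pdgfra by 0.19. The fibroblast sums were 279 to 296 in sham and 276 to 349 in tail-suspension, most of them from Dcn. Macrophage markers had 1 higher of 4 tested, Cd163, which was on none of the sham arrays well above background and was at least 3.38-fold higher (limma adjusted p = 0.0239), with sums of 21.8 to 28.6 and 22.8 to 34.3. Neutrophil markers had 3 higher of 4 (S100a8 by 4.80 and S100a9 by 4.61 on the log2 scale, and Mpo), with sums of 144 to 172 and 207 to 235. Most of these sums was the fourth marker, Csf3r, with mean levels of 7.32 in sham and 7.61 in tail-suspension. Csf3r changed by 0.29 and did not pass (limma adjusted p = 0.0917). Mpo, like Cd163, was well above background on none of the sham arrays and was at least 2.20-fold higher (limma adjusted p = 0.00280). These 2 genes, like Cfd, were tested through the tail-suspension group alone. The bound sets their tail-suspension mean against the higher of the sham probe itself and the lowest signal well above background on each sham array. Erythroid markers had 1 lower of 5 (Hba-a1, by a log2 fold change of -1.50), with sums of 461 to 751 and 113 to 370. Beside these counts, 9.82% of all names tested were lower and 10.3% higher past the threshold. Like the cardiomyocyte sums, the neutrophil and erythroid sums separated the groups, and their part in the results was not tested.

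Last, the genes most like Cav1 and Cav3 over the arrays were sought, as a description. For Cav1, over 6 arrays and 19537 genes, these were Ces1e (Pearson r = 0.991), a transcript named BM947798 (0.989) and Fancc (0.983). For Cav3, over the 5 arrays with a value and 19544 genes, they were Tm9sf3 (1.000), Trim13 (0.999) and Dab1 (0.999). The points are few, and they share the slide, the scaling and, for Cav3, the difference between the groups.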

How the data were processed

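Cardiac muscle RNA of 3 sham and 3 tail-suspended mice was measured on 1-colour Agilent arrays. Per the deposited scanner files, Agilent Feature Extraction 10.7.1.1 turned each spot into an intensity with a background value and quality flags. The authors deposited log2 values for all 6 arrays as 1 further table, with a median of 4.32 in every column and a correlation of over 0.998 with the log2 processed intensity, used only as an alternative because its normalization is not given in the sources used here.

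The log2 processed intensity minus the 75th percentile of each array was taken over non-control spots without an outlier flag. Replicate spots were averaged per probe. Well above background meant that at least 50% of the spots of a probe carried that flag. Testing required this on all arrays of 1 group or both, which gave 28030 probes, 28 of them with a missing value. Groups, taken from the labels, were compared with limma 3.58.1 in R 4.3.3 (lmFit and eBayes, Benjamini-Hochberg adjustment, no covariates), a fit tested on simulated data. A 2-group t-test is named in the study's methods and served as an alternative. The arrays are separate mice, and their number limits the precision.

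The text names each of the 8 genes with all probes, Murc, Nos3, Insr, each gene past the threshold in 3 lists (caveola-associated, signalling, sterol supply), and the 3 genes most like Cav1 and Cav3. Relatives of Ehd2 and Pacsin2 and single markers were named after their values were seen. A further listed gene is not reported here. The genes, lists and rule were chosen with earlier results of these data known. Alternatives were normexp background correction (offset 50), quantile normalization, another set of probes behind the percentile, the authors' log2 table, no filter or a stricter one, flagged spots left in, robust eBayes with an intensity trend, array weights, the t-test of the methods, blocks for the replicate number and for the slide row, the mean of a gene's probes, and each array left out. No scaling, and the tests of the sterol list and of further probes under all alternatives, were added after seeing the data.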

Additional observations from a re-analysis of the deposited data

How the results depend on the processing

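Of the 8 genes, 3 were lower as reported, 0 with no scaling between arrays, 1 without the filter on dim probes, 5 with an intensity trend and robust estimation (Cav3 and Ptrf added), 0 with the slide row as a block and between 0 and 3 with each array left out. Among caveola-associated genes, the number higher was 0 as reported, 2 under normexp, with the intensity trend and with array weights, 1 under quantile normalization, with the percentile over probes well above background on all arrays and in the authors' log2 table, 3 with no scaling, and between 0 and 1 with each array left out, and the number lower went from 1 to 0 with the row block. Among signalling genes, the number higher went from 2 to 4 with no scaling and to 1 with the row block. The number lower went from 1 to 2 under normexp, with the intensity trend and with array weights, to 0 with no scaling and without the filter, and to between 0 and 1 with each array left out. Among sterol supply genes, the number higher went from 1 to 2 with no scaling, to 0 without the filter, by the methods' t-test, and with the replicate block and the row block, and to between 0 and 1 with each array left out, and the number lower went from 2 to 1 with no scaling, by the methods' t-test and with the replicate block, to 0 without the filter and with the row block, and to between 0 and 2 with each array left out. Changes that turned their sign were Cav1 with no scaling (0.028), Prkcdbp with no scaling (0.15), array weights (0.0097), the row block (0.0279) and without sham replicate 3 (0.0521), and Murc with no scaling (0.11) and without sham replicate 2 (0.0219). With each array left out, Prkcdbp ranged from -0.14 to 0.05 and Murc from -0.17 to 0.02. None of them passed the threshold either way. Counts that stayed within 1.5 times the reported one also moved. Of the 8 genes, 2 were lower by the methods' t-test. The number was 4 under quantile normalization, in the authors' log2 table and with the mean of a gene's probes. Of the sterol supply genes, 3 were lower under quantile normalization, in the authors' log2 table, with the intensity trend and with array weights. Fewer arrays are fitted when 1 is left out, more probes are adjusted over without the filter, and the row block sets 1 tail-suspension array against the sham arrays. The cause of the other moves was not tested.

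Over all probes, 2984 were higher and 2691 lower as reported. Against these stood 6765 and 1088 with no scaling, 1038 and 805 without the filter, 4199 and 4085 with array weights, 1456 and 1203 by the methods' t-test, 1725 and 1432 with the replicate block and 326 and 178 with the row block. With each array left out, the count lay between 1012 and 2889 for higher and between 757 and 2691 for lower probes. The deviations of same-numbered replicates from their group means correlated at -0.02, -0.0176 and 0.0495. These values show no pairing by number, but 3 pairs of arrays cannot exclude one. With the replicate block 3 of the 8 genes were lower as before, and the paired fit lost Abca1 (adjusted p = 0.0554) and Sqle (0.0755) among the genes fitted under every alternative, which leaves out the cell type markers, and no other call among those. Over the alternatives, 118 list counts stayed within 1.5 times the reported count and 42 did not, and 350 fold changes kept their sign and their side of the threshold, 54 lost the call, 5 gained one and 7 turned their sign.

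Each group holds 3 arrays. Cav3 was fitted on 2 sham arrays. The dimmer Ptrf probe, with intensities between 32.4 and 94.9, and Cav2 probe 3 were the dimmest of the 12. Protein was not measured on these arrays, and the adjusted p of Ehd2 and Pacsin2 lay close to the threshold whenever 1 of 3 particular arrays was left out.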
